A study of Mus musculus with 9 samples.

Results

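Glycolysis and hypoxia response genes were described in mouse bone marrow-derived macrophages that received a chemokine or a control protein. The set held 33 of the 13593 genes in the deposited count table and was chosen by gene symbol from a fixed list of names, with no measured value in the rule, although that list was drawn up with earlier results of these data known. It comprised 19 glycolytic enzymes, their regulators and transporters, and 14 genes of the hypoxia-inducible factor (HIF) pathway and its targets. All 33 passed the filter on low counts. Macrophages were grown from the marrow of wild-type C57BL/6 mice aged 6 weeks, over 7 days in medium with 15% L929 cell supernatant, which supplies the growth factor that turns marrow precursors into macrophages. They then received CCL26, CX3CL1 or bovine serum albumin (BSA, the control protein), each at 4 nM for 4 h, with 3 libraries per group. Both chemokines are called ligands of CX3CR1 in the title of the series, and CX3CR1 is a receptor of monocytes and macrophages. The labels do not say whether the libraries of a group came from separate animals or cultures, and the p-values therefore reflect library-to-library spread that may be technical.

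Glycolysis turns glucose into pyruvate in the cytosol and yields ATP without oxygen, and macrophages draw on it when they are activated. HIF-1 is a transcription factor made of an alpha subunit, encoded by Hif1a, and a constant partner. In normal oxygen, prolyl hydroxylases of the Egln family mark the alpha subunit for destruction, so HIF-1 activity is set largely at the protein level. When oxygen is low or inflammatory signals stabilise it, HIF-1 binds DNA at a short core sequence and raises genes for glucose uptake, nearly every glycolytic step, and the export of lactate.

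That core, ACGTG, was looked up on both strands in the 250 bases upstream of each gene's start (RefSeq, GRCm38.p6). Promoters of 30 of the 33 members were matched, with 42 start sites, and Bhlhe40, Bnip3l and Ndrg1 were unmatched. The letters occurred in 22 of the 42 windows (52.4%), against 16.6% of all 32851 windows in the table. Among enzymes and transporters 12 of 28 windows held them (42.9%), and among HIF pathway and target genes 10 of 14 (71.4%). The longer word CACGTG, the E-box, contains ACGTG on both strands and was present in 4 member windows (9.52%) and in 6.02% of all windows. A match of letters is a description and does not show binding. The set includes genes listed as HIF targets, so its share beside that of all windows is not a test. Windows of the same gene can overlap, as for Aldoa, and were counted separately, and base composition was not matched. Of the 4 windows printed here, Ldha and Pgk1 belong to glycolytic genes that were lower after CCL26 in the libraries other than CX3CL1 replicate 1, and Hif1a and Bnip3 to HIF pathway genes that did not pass in that fit. They were picked after the values had been seen. The windows are chr7:46845554-46845803 on the plus strand for Ldha, chrX:106186850-106187099 on the plus strand for Pgk1, chr12:73907617-73907866 on the plus strand for Hif1a and chr7:138909507-138909756 on the minus strand for Bnip3. Each is written 5′ to 3′, and capitals mark ACGTG or its reverse complement CACGT.
Ldha: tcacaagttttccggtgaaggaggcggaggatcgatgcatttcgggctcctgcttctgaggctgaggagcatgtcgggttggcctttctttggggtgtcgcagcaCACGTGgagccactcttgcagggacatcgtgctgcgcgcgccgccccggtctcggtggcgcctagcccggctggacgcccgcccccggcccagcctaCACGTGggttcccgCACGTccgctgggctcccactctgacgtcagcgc
Pgk1: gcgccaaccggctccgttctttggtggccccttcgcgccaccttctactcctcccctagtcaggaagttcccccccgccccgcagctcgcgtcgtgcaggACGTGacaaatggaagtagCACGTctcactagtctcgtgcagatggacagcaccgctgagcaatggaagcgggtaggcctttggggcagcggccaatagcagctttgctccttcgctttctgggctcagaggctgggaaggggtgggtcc
Hif1a: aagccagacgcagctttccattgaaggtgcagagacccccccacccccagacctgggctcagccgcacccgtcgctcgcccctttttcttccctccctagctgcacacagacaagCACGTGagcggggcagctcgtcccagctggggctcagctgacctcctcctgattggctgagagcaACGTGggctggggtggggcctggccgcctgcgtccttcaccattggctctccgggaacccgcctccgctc
Bnip3: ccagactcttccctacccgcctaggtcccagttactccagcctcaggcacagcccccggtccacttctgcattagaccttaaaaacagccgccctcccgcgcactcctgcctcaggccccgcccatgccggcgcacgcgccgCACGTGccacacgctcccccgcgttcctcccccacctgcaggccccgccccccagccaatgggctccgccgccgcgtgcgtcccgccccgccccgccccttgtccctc
Counted on both strands, the core occurred 5 times in the printed Ldha window, 2 times in that of Pgk1, 3 times in that of Hif1a and 2 times in that of Bnip3. The window of the other Ldha start, which is not printed, held it 0 times.

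One library stood apart from the rest. Depth ran from 16923982 to 23198324 counts per library. In CX3CL1 replicate 1, 1193 genes had no count, against 80 to 170 in the other 8 libraries. Its mean correlation with the others was 0.918, against 0.979 to 0.982, across genes. Among the 19 enzymes and transporters it was the highest of all 9 libraries for 10 genes (Gpi1, Pfkl, Aldoa, Tpi1, Gapdh, Pgk1, Eno1, Pkm, Ldha and Slc16a3) and the lowest for 7 (Hk1, Hk2, Pfkp, Pfkfb3, Pfkfb4, Pgam1 and Pdk1). Among the 14 HIF pathway and target genes it was the highest for Egln3, Higd1a and Ankrd37 and the lowest for Hif1a, Bnip3, Ndrg1 and Vegfa. How often this library was the highest or lowest over all genes was not counted. Because it stood apart, tests on the members are given with all 9 libraries and with the 8 that remain without it. Log2 fold changes are from edgeR, a positive value means higher in the group named first, and p-values are adjusted over all genes tested. Levels are in CPM, the count of a gene relative to all counts of its library, in the scaling of all 9 libraries.

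In the control macrophages the enzymes from aldolase down to lactate formation were the most abundant members per length. Per kilobase of annotated exon, Gapdh, which oxidises glyceraldehyde-3-phosphate, stood at 609 ± 1.49 CPM in BSA libraries (SD, n = 3). Pyruvate kinase Pkm followed at 581 ± 9.1, the aldolase Aldoa at 441 ± 9.13 and the phosphoglycerate kinase Pgk1 at 398 ± 7.83 CPM per kilobase. Next came Ldha, which reduces pyruvate to lactate, at 215 ± 7.8, the enolase Eno1 at 192 ± 5.71, the triosephosphate isomerase Tpi1 at 148 ± 1.84 and the phosphoglycerate mutase Pgam1 at 129 ± 3.11 CPM per kilobase. The earlier steps were lower, with Gpi1, the glucose-6-phosphate isomerase, at 86.7 ± 2.75 CPM per kilobase. Of the hexokinases, which phosphorylate glucose, Hk3 was at 76.4 ± 0.482, Hk2 at 21.8 ± 0.767 and Hk1 at 15.4 ± 0.132 CPM per kilobase, and their ranges did not overlap. Of the phosphofructokinase subunits Pfkp was at 22.2 ± 0.161 and Pfkl at 11.2 ± 0.31 CPM per kilobase. The glucose transporter Slc2a1 was at 32.3 ± 1.76 and the lactate exporter Slc16a3 at 10.7 ± 0.53 CPM per kilobase. All HIF pathway and target genes lay below Hk3 on this scale. They ran from P4ha1, a collagen prolyl hydroxylase, at 36.1 ± 2.85 to Ankrd37, an ankyrin repeat gene, at 1.17 ± 0.42 CPM per kilobase, with Hif1a itself at 27 ± 0.66. P4ha1 and Bnip3l, at 36.1 ± 2.85 and 34.7 ± 2.65 CPM per kilobase, did not differ beyond their spread. Exon length was merged over all annotated isoforms, which lowers the value of genes with long rare isoforms.

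**Figure D1:**
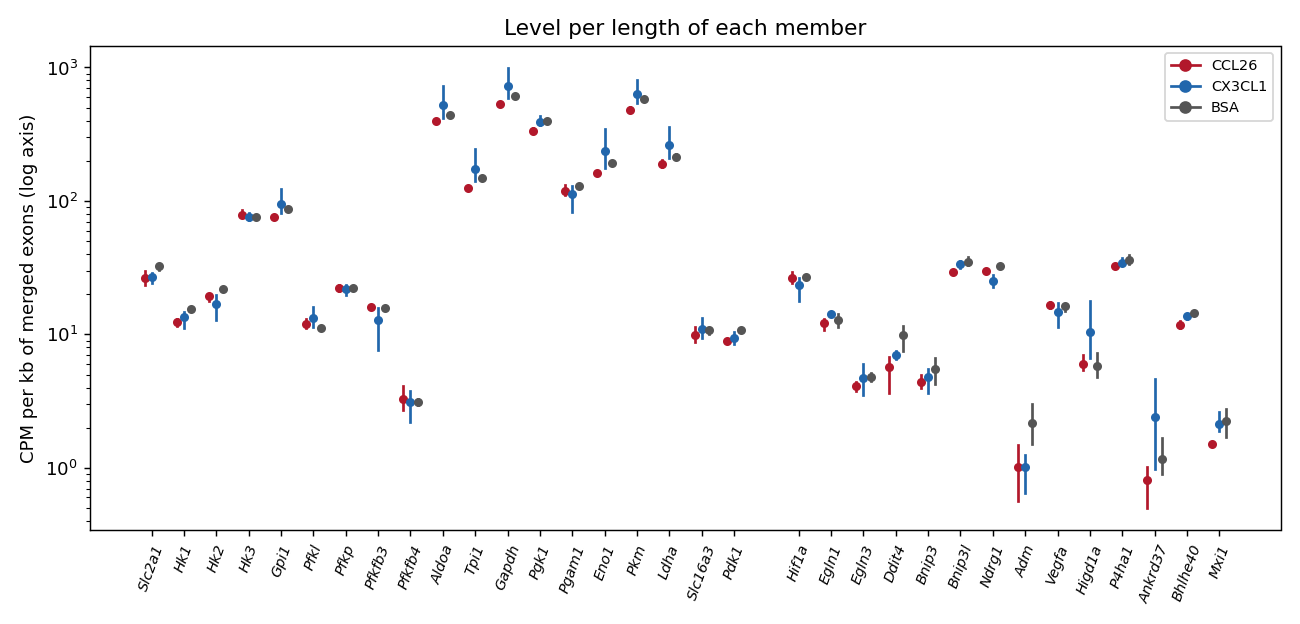
Level of each member in CPM per kilobase of merged exon on a log axis, with the mean (point) and the range over all 3 libraries (bar) for CCL26, CX3CL1 and BSA. Gapdh, Pkm, Aldoa and Pgk1 head the enzymes, and Hk3 lies above Hk2 and Hk1.

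After CCL26 most of the glycolytic pathway was lower than after BSA, and the call rested on whether CX3CL1 replicate 1 took part in the estimate of spread. Without that library 12 of 19 enzymes and transporters and 6 of 14 HIF pathway and target genes fell, and none rose. In the same test 9.26% of all 13245 genes fell and 9.74% rose. The genes that fell covered glucose uptake (Slc2a1), hexokinase (Hk1, Hk2), Gpi1, Aldoa, Tpi1, Gapdh, Pgk1, Eno1, Pkm and Ldha, that is, most steps between glucose and lactate, and Pdk1, a kinase that restrains entry of pyruvate into mitochondria. With all 9 libraries edgeR called 0 of the 33 members, and so did DESeq2 and limma-voom. There 0.0465% of 12915 genes were called lower and 0.387% higher. At an unadjusted p under 0.05 stood 3 of the 19 enzymes and 5 of the 14 HIF genes, 8 members in all, against 6.13% of all genes. The direction was alike in both: 27 of 33 values were negative, with a median log2 fold change of -0.195 with 9 libraries and -0.192 with 8, against medians over all genes of 0.004 and 0.008. Among all genes of at least 100 CPM the medians were -0.072 and -0.065. By class, 15 of 19 enzymes (median -0.187 with 8 libraries) and 12 of 14 HIF genes (median -0.226) were negative. CX3CL1 replicate 1 belongs to neither group of this comparison, and a fit of only the 6 CCL26 and BSA libraries also called 18 members lower.

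The lower glycolytic enzymes gave the smallest p-values. Pkm (chromosome 9, 59656368 to 59679375, GRCm38) encodes pyruvate kinase, which makes pyruvate and ATP in the last step. It had 2347, 2306 and 2541 CPM in the CCL26 libraries, 4016, 2826 and 2697 CPM in the CX3CL1 libraries (CX3CL1 replicate 1 first) and 2854, 2921 and 2940 CPM in the BSA libraries. All 3 CCL26 libraries lay below every other library. The log2 fold change against BSA was -0.27 (SE 0.031, edgeR adjusted p = 3.39e-07) with 8 libraries and -0.28 (SE 0.15, adjusted p = 0.96) with 9.

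Eno1 (chromosome 4, 150236721 to 150248879) encodes enolase, which forms phosphoenolpyruvate. It had 862, 872 and 862 CPM with CCL26, 1874, 958 and 1007 CPM with CX3CL1, and 1068, 1008 and 1028 CPM with BSA. The CCL26 libraries were close to each other and below all others, while CX3CL1 replicate 1 was far above the rest. The log2 fold change against BSA was -0.26 (SE 0.032, edgeR adjusted p = 1.91e-06) with 8 libraries, and -0.26 (SE 0.23, adjusted p = 1) with 9. Gapdh (chromosome 6, 125161715 to 125166467) had 2242, 2250 and 2121 CPM with CCL26, 4101, 2439 and 2448 CPM with CX3CL1, and 2519, 2520 and 2509 CPM with BSA. Again the groups of CCL26 and BSA did not overlap, and the log2 fold change was -0.19 (SE 0.026, edgeR adjusted p = 8.13e-06; 9 libraries -0.19, SE 0.19, adjusted p = 1). Gapdh is often taken as a constant control transcript, and here it was lower by a log2 fold change close to the median of the members.

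Pgk1 (chromosome X, 106187100 to 106203699), the first enzyme of the pathway to yield ATP, whose promoter window is printed above, had 727, 741 and 797 CPM with CCL26, 965, 840 and 836 CPM with CX3CL1, and 904, 874 and 905 CPM with BSA. Its CCL26 libraries overlapped with neither other group. The log2 fold change against BSA was -0.24 (SE 0.035, edgeR adjusted p = 1.68e-05; 9 libraries -0.24, SE 0.1, adjusted p = 0.776). Tpi1 (chromosome 6, 124810586 to 124814296), which interconverts the triose phosphates, had 346, 338 and 353 CPM with CCL26, 673, 384 and 390 CPM with CX3CL1, and 410, 403 and 412 CPM with BSA. Its CCL26 libraries were again the 3 lowest (log2 fold change against BSA -0.24, SE 0.038, edgeR adjusted p = 4.49e-05; 9 libraries -0.24, SE 0.2, adjusted p = 1). Hk1 (chromosome 10, 62268855 to 62379908) encodes a hexokinase that binds mitochondria. It had 98.2, 112 and 106 CPM with CCL26, 94.9, 125 and 124 CPM with CX3CL1, and 130, 130 and 132 CPM with BSA. Here CX3CL1 replicate 1 was the lowest library of all, unlike for the other 5 enzymes given. Hk1 had the largest fall among the called enzymes, with a log2 fold change of -0.31 (SE 0.056, edgeR adjusted p = 0.000209; 9 libraries -0.31, SE 0.13, adjusted p = 0.781).

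The other 6 called members of this class were Gpi1, the glucose-6-phosphate isomerase, at -0.20, Aldoa at -0.15, Ldha at -0.19, Pdk1 at -0.27, Slc2a1 at -0.28 and Hk2 at -0.18 on the log2 scale. Over the 12 called enzymes the change lay between -19.3% and -9.97%, with edgeR adjusted p-values from 3.39e-07 to 0.0361 with 8 libraries and from 0.771 to 1 with 9. Hk2 was no longer called when any single BSA library was left out (adjusted p = 0.0599, 0.17 and 0.0691) or without CCL26 replicate 2 (adjusted p = 0.212), and Slc2a1 was not called without CCL26 replicate 2 (edgeR adjusted p = 0.058). The 7 members that did not pass included every gene of the phosphofructokinase step, which commits sugar to glycolysis. The subunits Pfkl and Pfkp had log2 fold changes of 0.10 and 0.00, and Pfkfb3 and Pfkfb4, which make and break the activator of that enzyme, 0.03 and 0.08. Hk3, the most abundant hexokinase per length, was at 0.05. Pgam1 was at -0.11 and Slc16a3 at -0.10, and Pgam1 passed without CCL26 replicate 3 (edgeR adjusted p = 0.000818). No difference in response between these genes and the called ones was tested.

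**Figure D2:**
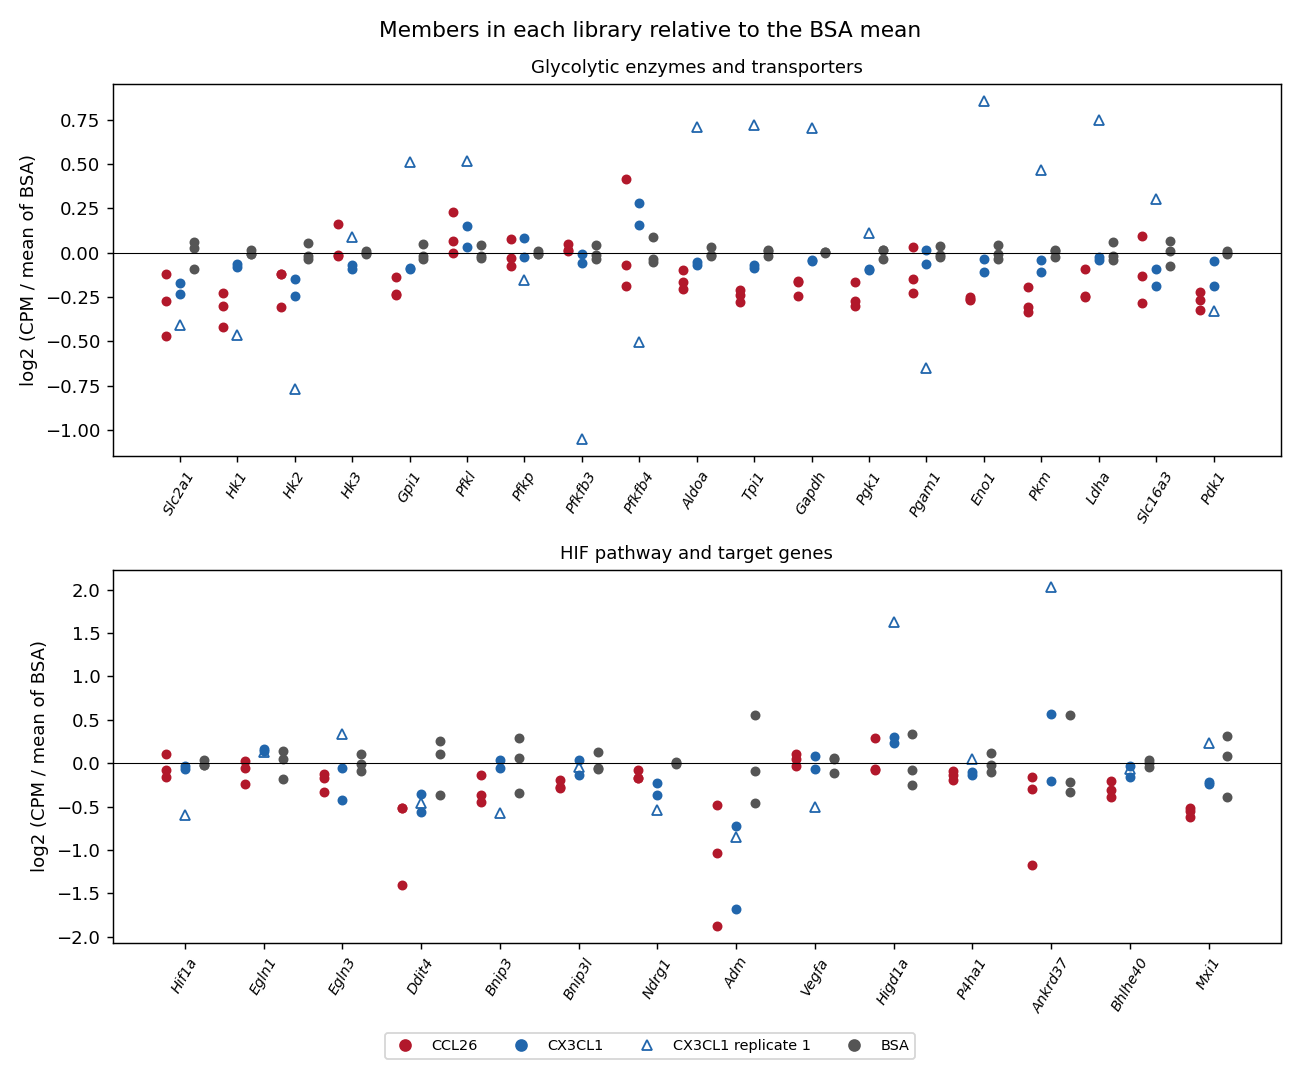
Log2 ratio of each member in each library to its mean over the 3 BSA libraries, enzymes and transporters above and HIF pathway and target genes below, with CX3CL1 replicate 1 as a triangle. CCL26 libraries lie below 0 for most members, and CX3CL1 replicate 1 lies far from the other CX3CL1 libraries in both directions.

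The HIF genes fell in smaller number and with larger folds at low levels. Bhlhe40 (chromosome 6, 108660629 to 108666925), a transcriptional repressor, had 59.2, 55.1 and 52.3 CPM with CCL26, 65.4, 61.4 and 67.1 CPM with CX3CL1, and 66.6, 70.3 and 68.5 CPM with BSA. The CCL26 libraries were the 3 lowest of 9. The log2 fold change against BSA was -0.30 (SE 0.07, edgeR adjusted p = 0.00325; 9 libraries -0.30, SE 0.11, adjusted p = 0.603). Ddit4 (chromosome 10, 59949669 to 59951834) restrains mTORC1 under stress, and had 11.9, 6.38 and 11.9 CPM with CCL26, 12.3, 13.3 and 11.5 CPM with CX3CL1, and 18.3, 13.2 and 20.3 CPM with BSA. CCL26 and BSA libraries did not overlap, with the CX3CL1 libraries close to the upper CCL26 values (CCL26 against BSA -0.77, SE 0.19, edgeR adjusted p = 0.00395; 9 libraries -0.78, SE 0.26, adjusted p = 0.54). Bnip3l (chromosome 14, 66985239 to 67008877), a receptor for the removal of mitochondria, had 111, 117 and 110 CPM with CCL26, 130, 137 and 121 CPM with CX3CL1, and 127, 129 and 146 CPM with BSA. Its CCL26 libraries were also the 3 lowest (log2 fold change against BSA -0.25, SE 0.061, edgeR adjusted p = 0.00476; 9 libraries -0.25, SE 0.11, adjusted p = 0.802).

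Mxi1 (chromosome 19, 53310518 to 53375810) encodes a partner of MAX that opposes MYC. It had 10.6, 10.3 and 9.88 CPM with CCL26, 17.8, 13.0 and 12.8 CPM with CX3CL1, and 16.0, 11.6 and 18.7 CPM with BSA, with the CCL26 libraries close together below a wide BSA range (log2 fold change -0.58, SE 0.15, edgeR adjusted p = 0.00738; 9 libraries -0.59, SE 0.21, adjusted p = 0.605). Ndrg1 (chromosome 15, 66929318 to 66969640), a stress-induced gene raised by low oxygen, had 191, 203 and 191 CPM with CCL26, 148, 183 and 167 CPM with CX3CL1, and 214, 217 and 215 CPM with BSA. All CCL26 libraries lay between the CX3CL1 and the BSA libraries (CCL26 against BSA -0.14, SE 0.047, edgeR adjusted p = 0.0423; 9 libraries -0.14, SE 0.11, adjusted p = 1). Adm (chromosome 7, 110627661 to 110629820), which encodes the vasodilator peptide adrenomedullin, was low in every library, with 2.40, 0.912 and 1.63 CPM with CCL26, 1.85, 1.04 and 2.03 CPM with CX3CL1, and 3.13, 4.90 and 2.44 CPM with BSA. The highest CCL26 library, at 2.40 CPM, nearly met the lowest BSA library, at 2.44 CPM. Its log2 fold change was -1.07 (SE 0.37, edgeR adjusted p = 0.0448; 9 libraries -1.08, SE 0.45, adjusted p = 0.767).

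Of these 6 calls, those of Bhlhe40 and Ddit4 kept their side of the threshold whichever library was left out of the 8. Without BSA replicate 3, Bnip3l and Mxi1 had edgeR adjusted p-values of 0.0615 and 0.0839. Ndrg1 lost its call when any single BSA library was left out (edgeR adjusted p = 0.0921, 0.132 and 0.102) and without CCL26 replicate 1 (0.136). Adm lost it without BSA replicate 1 or 2 (edgeR adjusted p = 0.0746 and 0.29) and without CCL26 replicate 2 or 3 (0.183 and 0.0623).

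Hif1a and the 2 prolyl hydroxylase genes were not among those that fell. Hif1a (chromosome 12, 73901375 to 73947530), which encodes the regulated subunit, had 172, 151 and 142 CPM with CCL26, 105, 152 and 156 CPM with CX3CL1, and 157, 158 and 164 CPM with BSA. The CCL26 libraries spanned the whole BSA range, and the log2 fold change against BSA was -0.04 (SE 0.058, edgeR adjusted p = 0.746; 9 libraries -0.04, SE 0.16, adjusted p = 1). The prolyl hydroxylases Egln1 and Egln3, which tag HIF-1 alpha for destruction and are themselves HIF targets, were at -0.09 and -0.21 on the log2 scale. Of the targets that did not pass, the angiogenic growth factor Vegfa was at 0.04, the mitochondrial gene Higd1a at 0.04, P4ha1 at -0.14, Bnip3 at -0.33 and Ankrd37 at -0.52. The last of these rests on 1.24 ± 0.418 CPM with CCL26 and 1.80 ± 0.647 CPM with BSA (SD, n = 3 each). Over the 8 members not called the adjusted p ran from 0.0812 to 0.906 with 8 libraries, and Bnip3 (adjusted p = 0.0455 by edgeR without BSA replicate 1) and P4ha1 (adjusted p = 0.0343 without BSA replicate 3) each passed when 1 BSA library was left out.

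**Figure D3:**
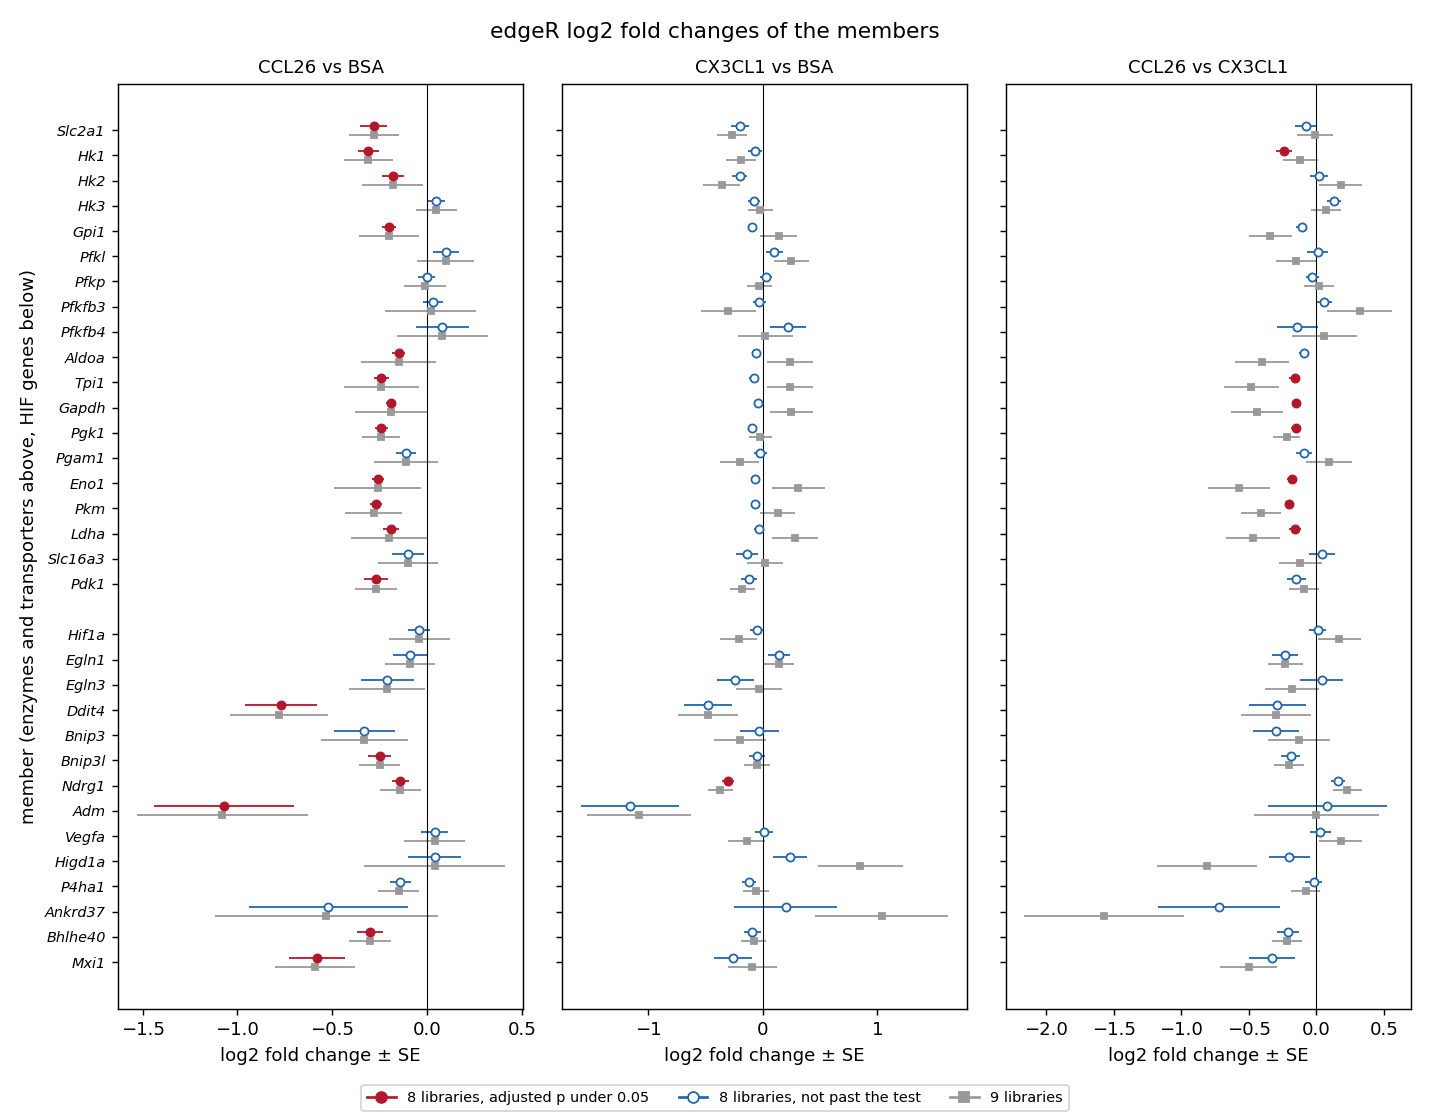
Log2 fold change of each member with its standard error, CCL26 against BSA, CX3CL1 against BSA and CCL26 against CX3CL1, from the fits with 8 libraries (circles, filled red where the adjusted p was under 0.05) and with 9 (grey squares). Estimates of CCL26 against BSA are nearly the same in both fits, while standard errors are wider with 9 libraries.

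Members were read against the genes around them in abundance, because the called enzymes were among the most abundant transcripts. Of genes with a mean of at least 100 CPM, a limit chosen after the values had been seen, 728 of 2312 (31.5%) were lower after CCL26 with 8 libraries, against 4.56% of the less abundant genes. Of the members above that limit 13 of 19 were lower, and of those below it 5 of 14. Of all genes above it 65% had a negative value with 8 libraries and 67.2% with 9. Of the members there 17 of 19 were negative in each fit. Below the limit 45.1% of all genes and 10 of 14 members were negative with 8 libraries. In CCL26 libraries the 33 members together took 1.14% to 1.20% of all counts, against 1.27% to 1.29% in BSA libraries. By library, the median log2 ratio of the 19 enzymes to their BSA mean was -0.224, -0.241 and -0.119 in the CCL26 libraries, and -0.190, -0.252 and -0.185 for the 14 HIF genes. CCL26 replicate 3 was thus nearer to BSA than the other 2 for the enzymes. Groups of CCL26 and BSA did not overlap for 12 of the 19 enzymes and 7 of the 14 HIF genes, all lower with CCL26, against 16.5% of all genes that were lower without overlap.

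**Figure D4:**
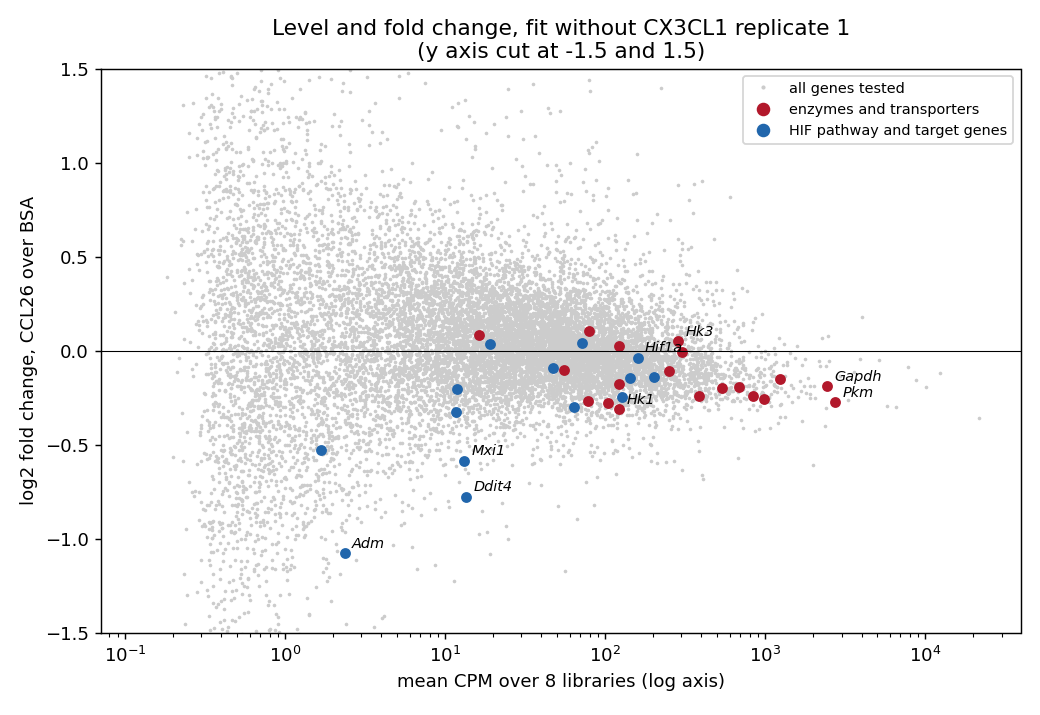
Log2 fold change of CCL26 against BSA with 8 libraries for all tested genes (grey) and members (coloured by class) by mean CPM on a log axis; the vertical axis is cut, so genes with larger fold changes fall outside it. Most members at or above 100 CPM lie below 0, as do 65% of all genes there.

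The culture's identity moved in part with these genes. All 11 macrophage markers were among the genes tested, and their summed level was 24600 to 25200 CPM in CCL26 libraries, 28700 to 42400 CPM in CX3CL1 libraries (29200 to 30000 without replicate 1, in the scaling of 8 libraries) and 30500 to 31000 CPM in BSA libraries. Lyz2 made up most of that sum, and 7 of the 11 were lower after CCL26 with 8 libraries, among them Lyz2 (-0.35), Mrc1 (-0.29), Itgam (-0.24) and Adgre1 (-0.14, F4/80), while Csf1r was at 0.04 (edgeR adjusted p = 0.423). Of the same 11, 1 was lower after CX3CL1 than after BSA and 5 were lower after CCL26 than after CX3CL1 with 8 libraries. Of all genes 9.26% were lower after CCL26 than after BSA with 8 libraries, and 31.5% of those of at least 100 CPM. The shares were 0.31% and 1.3% for CX3CL1 against BSA, and 4.64% and 16.3% for CCL26 against CX3CL1. Markers of granulocyte precursors (9 of 10 in the table) summed to 79.4 to 84.3 CPM with CCL26, 70.3 to 183 CPM with CX3CL1 and 64.8 to 70.3 CPM with BSA, and with 8 libraries S100a9 and S100a8 rose after CCL26 relative to BSA (0.35 and 0.34). Fibroblast markers (4 of 7) and dendritic cell markers (4 of 6) summed to at most 2.58 and 10.2 CPM. For B cells only Cd79a and Cd79b of 5 markers were in the table, at a sum of 17.3 to 21 CPM with CCL26, 21.9 to 70.9 CPM with CX3CL1 and 23.2 to 25.5 CPM with BSA. Pf4 and Itga2b of 7 erythroid and megakaryocyte markers summed to 65.9 to 73.2, 83.6 to 261 and 81.4 to 84 CPM in CCL26, CX3CL1 and BSA libraries. Without replicate 1, CX3CL1 libraries summed to 71.7 to 78.9 CPM for granulocyte precursors and 3.54 to 4.09 CPM for dendritic cells. For B cells the range was then 22.3 to 22.4 CPM, and for erythroid and megakaryocyte markers 85.3 to 91.4 CPM (scaling of 8 libraries). With 8 libraries Cd79b (-0.36) and Pf4 (-0.26) fell after CCL26 relative to BSA. With 9 libraries edgeR called none of the markers in this comparison, where 1 macrophage marker had an unadjusted p under 0.05. None of the 6 T and NK cell markers was among the genes analysed. Mitochondrially encoded transcripts took 0.0547% to 0.0626% of counts with CCL26, 0.0772% to 0.113% with CX3CL1 (0.0772% to 0.0785% without replicate 1) and 0.0872% to 0.0898% with BSA. The part of these differences in the results on the members was not tested, and in bulk RNA fewer cells of a type and less RNA per cell cannot be told apart.

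Genes of the same pathways outside the set, from lists chosen with earlier results of these data known, gave calls in both directions. Of 27 tested genes of other glycolytic isoforms, pyruvate entry and glycogen, 3 rose after CCL26 and 2 fell with 8 libraries (median log2 fold change -0.081), shares close to the 9.74% and 9.26% of all genes. Those that rose included the lysosomal sugar transporter Slc2a6 (0.48, SE 0.085, edgeR adjusted p = 0.000202) and the ADP-dependent glucokinase Adpgk (0.30). The other was Pgam5 (0.30), a mitochondrial phosphatase and not a glycolytic mutase. The monocarboxylate transporter Slc16a1 fell (-0.25), as did Pdhb (-0.20), a subunit of pyruvate dehydrogenase. Of the 8 pentose phosphate genes 3 fell, namely Pgd (-0.18), Tkt (-0.13) and Taldo1 (-0.13), and none rose (median -0.111). All 3 had a mean of at least 100 CPM, where 31.5% of all genes fell. Of these 35 genes in all, edgeR called 0 with 9 libraries, where 1 had an unadjusted p under 0.05.

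Of 16 genes of the HIF machinery 1 rose and 3 fell after CCL26 with 8 libraries, with a median log2 fold change of -0.037. In that fit 9.74% of all genes rose and 9.26% fell, and 31.5% of genes of at least 100 CPM fell. Siah2, a ubiquitin ligase that destroys HIF hydroxylases, rose by 0.26 on the log2 scale. Epas1, the gene of HIF-2 alpha, was low in expression and fell, with a mean of 3.93 CPM with CCL26 and 6.86 CPM with BSA in the scaling of 8 libraries (-0.81, SE 0.20, edgeR adjusted p = 0.00483). Eloc (-0.24) and the coactivator Ep300 (-0.13) fell. With 9 libraries edgeR called none of the 16, and 1 had an unadjusted p under 0.05. Of 29 tested other HIF targets 10 fell and 3 rose with 8 libraries (median -0.095), to be read against the same shares. With 9 libraries only Cxcr4 was called. Cxcr4, the receptor of CXCL12, fell in both fits, with 523, 538 and 497 CPM after CCL26, 685, 725 and 714 CPM after CX3CL1 and 758, 775 and 785 CPM after BSA. Its CCL26 libraries lay below every other library (9 libraries -0.57, SE 0.093, edgeR adjusted p = 0.0435; 8 libraries -0.57, SE 0.035, adjusted p = 7.94e-12). The transferrin receptor Tfrc (-0.28) and Wsb1 (-0.22) fell, and Rbpj, the nuclear effector of Notch, rose (0.32) with 8 libraries.

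Few members were called after CX3CL1 at the same dose and time. With all 9 libraries edgeR called 0 members and 0% of all genes in either direction, with 3 members, all HIF genes, at an unadjusted p under 0.05 (3.14% of all genes), and DESeq2 and limma-voom also called 0 members. Without CX3CL1 replicate 1, which leaves 2 CX3CL1 libraries, 1 member fell and none rose, against 0.31% and 0.0227% of all genes. The member was Ndrg1, whose 2 remaining CX3CL1 libraries, at 183 and 167 CPM, lay below all CCL26 and BSA libraries. Its log2 fold change was -0.30 (SE 0.053, edgeR adjusted p = 0.0146; 9 libraries -0.37, SE 0.11, adjusted p = 0.711). The call was lost when any single BSA library was left out (edgeR adjusted p = 0.117, 0.129 and 0.0633) and without CX3CL1 replicate 2 (0.0555) or 3 (0.535).

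The 19 enzymes gave no call for CX3CL1 against BSA with 8 libraries by edgeR, DESeq2 or limma-voom, and 4 had an unadjusted p under 0.05, against 7.48% of all genes. Their log2 fold changes lay between -0.20 (Hk2 and Slc2a1) and 0.22 (Pfkfb4), with edgeR adjusted p-values from 0.382 to 0.977. Over all members the median log2 fold change was -0.073 with 8 libraries and -0.029 with 9, against -0.001 and -0.005 for all genes. Negative values were found for 26 of 33 members with 8 libraries and for 20 with 9. Of the members of at least 100 CPM 18 of 19 were negative with 8 libraries, against 61.6% of all such genes. With 9 libraries 12 of 19 were, against 59.3%. The sign of single enzymes depended on CX3CL1 replicate 1. For Eno1 the value was 0.31 with 9 libraries and -0.07 with 8, for Ldha 0.28 and -0.03, and for Gapdh 0.25 and -0.04. The 2 other CX3CL1 libraries had median log2 ratios to BSA of -0.065 and -0.067 for the enzymes, and CX3CL1 replicate 1 had 0.111. With 8 libraries CX3CL1 and BSA did not overlap and CX3CL1 was lower for 13 of the 19 enzymes and 3 of the 14 HIF genes, against 13.2% of all genes. Shares without overlap were not taken among abundant genes alone, in this or the other comparisons. Among HIF genes, Hif1a was at -0.05 with 8 libraries and -0.21 with 9, Ddit4 at -0.48 with both, and Higd1a, a mitochondrial gene whose exons overlap an antisense gene over 22.5% of their length, at 0.24 and 0.85. Adm, low in every library, was at -1.16 with 8 libraries (SE 0.43, edgeR adjusted p = 0.494) and -1.08 with 9 (SE 0.45, adjusted p = 0.711). For CCL26 against CX3CL1 Adm was at 0.08 (SE 0.44) with 8 libraries. Of 29 other HIF targets Wsb1 fell (-0.20, edgeR adjusted p = 0.0285) with 8 libraries and had an adjusted p of 0.711 with 9. None of the other glycolytic, pentose phosphate and HIF machinery genes was called by edgeR in either fit, and with 8 libraries 2, 1 and 2 of them had an unadjusted p under 0.05.

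The direct comparison of the 2 chemokines asked whether the glycolytic genes differed between CCL26 and CX3CL1. With 9 libraries edgeR, DESeq2 and limma-voom called 0 members, where 0.0155% of all genes were called lower and 0.395% higher after CCL26. At an unadjusted p under 0.05 stood 5 enzymes and 2 HIF genes, 7 members in all, against 11.5% of all genes. Without CX3CL1 replicate 1, 7 of the 19 enzymes were lower after CCL26 than after CX3CL1 and none was higher, against 4.64% and 5.47% of all genes. All 7 had a mean of at least 100 CPM, where 16.3% of genes were lower. They were Pkm (-0.20, SE 0.034, edgeR adjusted p = 0.000231), Eno1 (-0.18, SE 0.036, adjusted p = 0.00118), Gapdh (-0.15, SE 0.029, adjusted p = 0.00126), Hk1 (-0.24, SE 0.062, adjusted p = 0.0125), Tpi1 (-0.16, SE 0.042, adjusted p = 0.0125), Pgk1 (-0.15, SE 0.039, adjusted p = 0.0155) and Ldha (-0.16, SE 0.045, adjusted p = 0.023). These values rest on 3 CCL26 and 2 CX3CL1 libraries, and the CCL26 libraries are the same as in the comparison with BSA. Groups did not overlap and CCL26 was lower for 10 of the 19 enzymes and 5 of the 14 HIF genes, against 18.1% of all genes. Pkm and Gapdh stayed past the threshold whichever library was left out. Eno1 did not pass without CX3CL1 replicate 3 (edgeR adjusted p = 0.0812). Hk1, Tpi1, Pgk1 and Ldha did not pass without CX3CL1 replicate 2 (edgeR adjusted p = 0.122, 0.0846, 0.138 and 0.179) or 3 (0.0958, 0.145, 0.109 and 0.119). Without CCL26 replicate 1, Hk1, Pgk1 and Ldha missed it (edgeR adjusted p = 0.0776, 0.0918 and 0.115), and without CCL26 replicate 2, Tpi1, Pgk1 and Ldha did (0.051, 0.0592 and 0.0989).

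The 12 other enzymes and transporters lay between -0.15 (Pdk1) and 0.13 (Hk3) on the log2 scale, with edgeR adjusted p-values from 0.107 to 0.973. None of the 14 HIF pathway and target genes was called by edgeR with 8 libraries, and 4 had an unadjusted p under 0.05, against 22.1% of all genes. Their values lay between -0.72 (Ankrd37) and 0.16 (Ndrg1). Ndrg1 was the member whose CCL26 libraries were highest relative to CX3CL1 (SE 0.053, edgeR adjusted p = 0.0593), and DESeq2 and limma-voom called it higher (adjusted p = 0.0385 and 0.0425). Hif1a was at 0.01 (SE 0.064, edgeR adjusted p = 0.952). In the other lists edgeR called no gene with 9 libraries, where 2 glycolytic, 2 HIF machinery and 4 other HIF target genes had an unadjusted p under 0.05. With 8 libraries Slc2a6 was higher after CCL26 than after CX3CL1 (0.40), and Slc16a1 (-0.38), Pgm2 (-0.32), Pdha1 (-0.23) and Pdhb (-0.21) were lower. The ubiquitin ligase genes Siah1a (0.66) and Siah2 (0.32) were higher, and Elob (-0.23) was lower. Of 29 other HIF targets 5 were lower, led by Cxcr4 (-0.47) and Tfrc (-0.26), and 2 were higher, Rbpj (0.44) and Rab20 (0.39). Of all genes 4.64% were lower and 5.47% higher, and 16.3% of genes of at least 100 CPM were lower. No pentose phosphate gene was called by edgeR in this comparison, where 1 of 8 had an unadjusted p under 0.05.

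Exons of 16 members overlap those of other annotated genes. The share of exon length was largest for Ankrd37 (22.7%), Higd1a (22.5%), Bnip3 (22.3%), Pkm (15.3%, on the same strand) and Gpi1 (11.5%). The sources used here do not state how strand was treated in counting, and reads of overlapping genes cannot be told apart. Gapdh, Eno1, Pgk1 and other abundant glycolytic genes have near-identical processed copies in the genome, which makes their exact level uncertain.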

How the data were processed

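Libraries of column-purified RNA were prepared with a NEBNext Ultra II kit, and read pairs of 150 bp were sequenced, per the labels' protocols. The authors deposited 1 table of raw counts per gene; STAR, featureCounts and MultiQC and the builds GRCm38 and mm10 are named in the submitters' processing notes, with no versions. Strand use and the rule that removed low genes before deposit are not given in the sources used here. Every value column was matched to a library by its code.

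Genes were kept by filterByExpr (12915 with 9 libraries, 13245 without CX3CL1 replicate 1), scaled by TMM and tested with edgeR 4.0.16 (R 4.3.3; quasi-likelihood F test, group as the only term, Benjamini-Hochberg adjustment over all genes tested, threshold 0.05). DESeq2 1.42.0 and limma-voom 3.58.1 were alternatives. Coordinates and exon lengths are of GENCODE M21 on GRCm38. The scripts were tested on simulated data. Chi-square per degree of freedom between replicates (genes of at least 20 counts) was 284 and 336 for pairs with CX3CL1 replicate 1 and 3.91 to 8.65 for the other pairs, so none was counted as 1 library.

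Members and gene lists were chosen with earlier results of these data known. Values in every library are given for Hif1a and for up to 6 called members per class and comparison with the smallest p in the fit of 8 libraries; of the other lists, up to 4 called genes are named. The plots were made in Python 3.11.15 with matplotlib 3.10.9.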

Additional observations from a re-analysis of the deposited data

How the results depend on the processing

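The count of members lower after CCL26 than after BSA was 0 with all 9 libraries under every alternative scaling, filter and threshold, with DESeq2, limma-voom and robust dispersion, and without any library other than CX3CL1 replicate 1. It was 18 without that library, 18 with only the 6 libraries compared, and 17 by limma-voom with library quality weights, which gave CX3CL1 replicate 1 a weight of 0.025. Under the same 2 changes (without CX3CL1 replicate 1, and quality weights) the count for CX3CL1 against BSA was 1 and 1, and for CCL26 against CX3CL1 it was 7 and 7. Quality weights, robust dispersion and scaling by total counts were chosen after seeing the data.

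With 8 libraries the 18 members lower after CCL26 than after BSA ranged from 15 to 18 when 1 library was left out, and the count was 0 with all 9. For CX3CL1 against BSA the count of 1 ranged from 0 to 2 (Ndrg1, and Pkm without CCL26 replicate 3), and was 0 with all 9 libraries and 0 at a threshold of 0.01. For CCL26 against CX3CL1 the count of 7 ranged from 2 (without CX3CL1 replicate 3) to 11 (without CCL26 replicate 3), with 3 without CX3CL1 replicate 2 and 4 without CCL26 replicate 1 or 2; where 1 CX3CL1 library is left, it is assumed to vary like the other groups. It was 4 with only the compared libraries, 0 with all 9 and 3 at a threshold of 0.01. Ndrg1 was the 1 member called higher in this comparison with a filter of 5 CPM in 3 libraries, DESeq2, limma-voom, robust dispersion, quality weights, total counts, a threshold of 0.1, or without CCL26 replicate 3 (range 0 to 1). The cause was not tested. No called value changed sign; signs of uncalled values did, such as Eno1, Ldha and Gapdh for CX3CL1 against BSA with 9 and with 8 libraries.

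Of all genes with 8 libraries, 1290 rose and 1227 fell after CCL26 relative to BSA; upper quartile scaling gave 1091 and 1565, and total counts 1798 and 800. The median log2 fold change of the members stayed negative, at -0.221 and -0.138, and 15 of the 18 remained lower with total counts (Hk2, Ndrg1 and Adm did not). Total counts moved the median of all genes by over 0.1 only for CCL26 against CX3CL1 with 9 libraries, to 0.123, against 0.018 with TMM.

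Same-numbered libraries of different groups did not deviate together (correlations from -0.078 to 0.051 over genes). Such correlations cannot decide whether equal numbers share an animal, culture or day, and the labels do not say. With the replicate block the counts with 8 libraries were 18, 1 and 7, and 0 in each comparison with 9. Adm and Ankrd37 had the fewest counts of the members, with mean levels under 5 CPM in each group.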
